A study of Canis lupus familiaris with 12 samples.

Results

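This is the test of whether the response of canine blood cells to 5-aminolevulinic acid (ALA) depended on stimulation with concanavalin A (ConA). For each gene it took the difference between ConA and ALA and ConA alone, and subtracted from it the difference between ALA alone and untreated cells. All 12 of the 12 libraries of the series entered, and 13358 of the 29822 listed genes had enough exon reads to be tested. The value, called the interaction below, is on the log2 scale: it is positive where ALA raised a gene more, or lowered it less, with ConA than without.

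The cells were peripheral blood mononuclear cells (PBMCs) of healthy male beagles bred free of specified pathogens, isolated on a density gradient and cultured for 24 h. The 4 groups were untreated cells, cells with ALA at 1.0 mM, cells with ConA at 0.5 µg/ml, and cells with both agents, with 3 libraries in each, numbered 1 to 3 in the titles. The libraries were made from poly(A) RNA. The labels give no age for the dogs and do not say whether a number stands for an animal, so the p-values measure the spread between these libraries. The number entered the model as a block, so that each treatment was compared within libraries of 1 number.

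ALA is the substrate from which cells build porphyrins and heme. Added from outside, it enters this pathway past its first, regulated step, the enzyme ALAS1. ConA is a plant lectin that crosslinks glycoproteins on the cell surface and so drives T cells into activation, cytokine secretion and division, with monocytes of the culture responding to the T cells. In dividing T cells the demand for heme, sterols, nucleotides and protein folding is high, and a product of stimulated cultures is IDO1, a heme enzyme that breaks down tryptophan.

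The libraries held between 13390692 and 21517099 exon reads. Number 1 stood apart in all 4 groups by its share of exon reads from mitochondrial genes, which was at most 4.82% there and at least 11.8% in the other libraries. In numbers 2 and 3 this share also followed the contrast, with a difference of differences of −4.56 and −4.36 percentage points, against 0.72 in number 1. The share of gene reads lying in introns was lower by the same contrast in 3 of 3 numbers (by −0.93, −3.67 and −2.02 points). The part of either share in the results below was not tested.

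No gene passed an adjusted p of 0.05 for the interaction in edgeR's quasi-likelihood test, so 0% of the 13358 genes were called in either direction. The smallest adjusted p was 0.105, and 11 genes lay under 0.2. At an unadjusted p under 0.05 there were 542 genes with a positive interaction (4.06% of all tested) and 462 with a negative one (3.46%), together 7.52%. The median interaction over all genes was −0.00 and 6717 genes, 50.3%, lay below 0. The same model called 6 genes, all higher, for ALA in resting cells (0.0449% of those tested) and 74 genes for ALA in ConA-treated cells (0.554%), of which 45 were higher (0.337%) and 29 lower (0.217%). These 2 counts are not a test of the difference between the states, which is the interaction itself. The interaction carries the error of both effects: its median SE was 0.32, against 0.23 for each effect of ALA alone.

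How many genes were called for the interaction varied with the tool and with single libraries. DESeq2 called 40 genes (0.299%), 19 higher (0.142%) and 21 lower (0.157%), and limma-voom called 5 (0.0374%). The 24 genes described below by smallest edgeR p, taken among genes with a symbol, included 23 of the DESeq2 calls and all 5 of limma-voom. In edgeR the count was 21 without untreated 3, 14 without all libraries of number 3, 3 without ALA 3, ConA 3 or ConA and ALA 3, 1 without untreated 1, and 0 without any other library. Without the block it was 0, with 222 genes at an unadjusted p under 0.05 (1.66%). Among the genes named below, the calls without untreated 3 included SLC27A6, PLA2G5, PLAAT3, IDO1 and ALAS1, and those without all of number 3 included SLC27A6, PLA2G5, CD9, MARCO, IDO1 and IL18. Below, a call with no tool named is one by edgeR with the block and all libraries. Values are given below as measurements with their errors, and a gene is said to have risen or fallen only where one of the effects of ALA or ConA itself passed the test.

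Calls for ALA within a state also depended on the block, since none was made without it in either state. Of the 22 genes named below that passed for ALA with ConA, all had the same direction in each alternative fitted, and 4 (PLA2G5, PLK2, CD9 and TBX21) passed with any 1 of the 12 libraries left out. ITGA7, CCL3 and CCL4 lost their call only without ConA 2. PLAAT3 lost it without ConA 1 or ConA and ALA 1 or 3, PSEN2 without ConA 1 or 2 or ConA and ALA 1, and SLC27A6 and CSF1 without library 1 or 2 of ConA or of ConA and ALA. S100A8, CCDC3, IDO2 and GADD45A lost it without 4 of the libraries with ConA, and PLA2G2F, LY6E, FCGR1A, IL18, GADD45G, PIR and OSGIN1 passed in 3 to 7 of the 12 cases. The 6 genes called at rest passed in 4 to 7 of the 12 cases, and 5 of them had the same direction in each alternative. COL9A2 went from 1.44 to −0.17 and C6H7orf50 from 1.05 to 0.052 in the alternative farthest from the reported value.

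**Figure D1:**
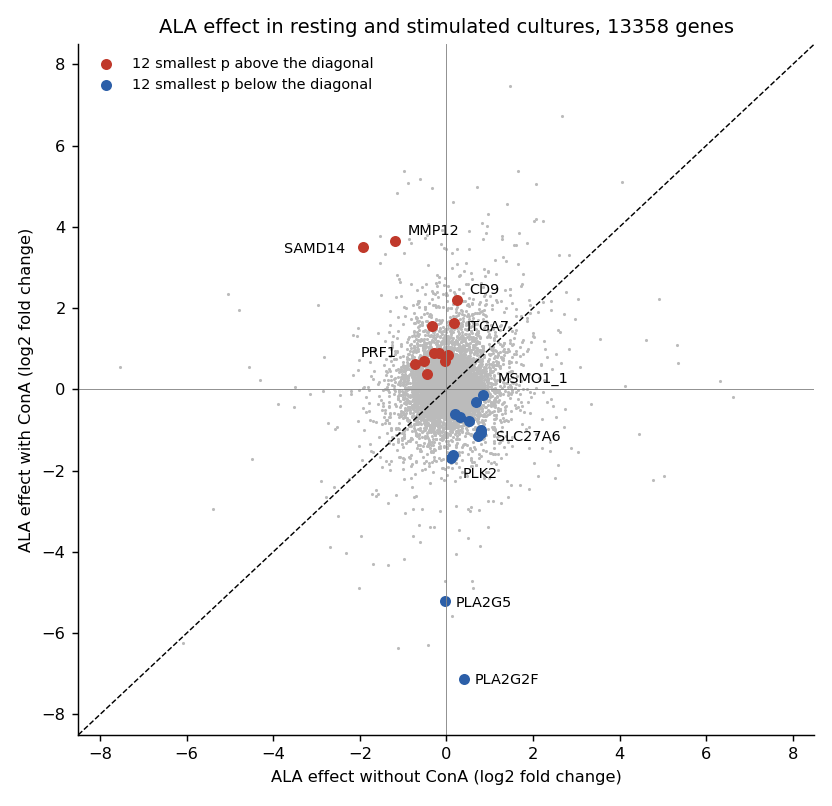
Each grey point is 1 of the 13358 genes, with the log2 effect of ALA without ConA on the horizontal axis and with ConA on the vertical axis. Genes on the dashed diagonal have an interaction of 0, and the coloured points are the 12 genes with the smallest p on each side, of which SAMD14, MMP12 and CD9 lie high above it and PLA2G5 and PLA2G2F far below.

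The 12 genes with the smallest p among negative interactions included 3 phospholipase genes and a fatty acid transporter. The 12 were SLC27A6, PLA2G5, PLK2, MARCO, PLAAT3, MSMO1_1, PLA2G2F, EHD1, DLC1, SH3PXD2A, RAB9A and MACO1, with edgeR adjusted p between 0.105 and 0.336. ConA raised 11 of them in the absence of ALA and lowered MARCO, all 12 passing the test for ConA, in which 42.5% of all genes passed, 21.3% higher and 21.2% lower. The ConA and untreated libraries enter this test and the interaction with opposite signs. Choosing genes by a negative interaction thus favours those high with ConA, so these counts are a description. ALA in the presence of ConA lowered 5 of the 12 (SLC27A6, PLA2G5, PLK2, PLAAT3 and PLA2G2F). The effects of ALA with and without ConA had opposite signs in 11 of the 12, PLA2G5 being the exception.

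PLA2G5 encodes a secreted phospholipase A2, an enzyme that frees fatty acids from phospholipids, and lies at chr2:78762852-78781983 of CanFam3.1. Its exon reads, scaled to library size as CPM, were 119, 45.7 and 19.1 in ConA 1, 2 and 3, and 2.93, 0.897 and 0.735 in ConA and ALA 1, 2 and 3. In untreated cells they were 0.36, 0.194 and 0.407, and with ALA alone 0.331, 0.523 and 0.155. Every ConA library thus lay above every library of the other groups, while the untreated and ALA groups overlapped. The fold change of ALA was −5.22 ± 0.38 (log2 ± SE, edgeR adjusted p = 4.5e-05) with ConA and −0.03 ± 0.71 without, and the interaction was −5.18 ± 0.81 (adjusted p = 0.134). The effect without ConA rests on 18 reads in each group.

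PLA2G2F, another secreted phospholipase A2, lies next to PLA2G5 in the same chromosomal region (chr2:78716228-78723984). It had 19 reads in untreated cells, 21 with ALA, 192 with ConA and 1 with both agents. Its CPM were 4.93, 2.22 and 2.56 in ConA 1, 2 and 3, and 0.0432, 0 and 0 in ConA and ALA 1, 2 and 3. The ratio of ConA to ConA and ALA was 169 per exon read sequenced, with an exact 95% interval of 30.0 to 6725 that covers counting error only, and the fall with ALA passed the test (edgeR adjusted p = 0.0118). The fitted interaction of such a gene depends on the tool's handling of counts near 0 and is left out here.

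PLAAT3, an intracellular phospholipase and acyltransferase (chr18:53368030-53398290), was more even between numbers. It stood at 8.46, 7.63 and 11.8 CPM in untreated 1 to 3, at 8.28, 13.2 and 9.94 with ALA, at 20.4, 18.8 and 21.2 with ConA, and at 5.96, 8.15 and 5.7 with both. The ConA libraries were the highest and the libraries with both agents were all below them, overlapping the untreated range. The interaction was −1.78 ± 0.34 (95% interval −2.50 to −1.05, edgeR adjusted p = 0.161), and PLAAT3 fell with ALA by 1.62 on the log2 scale in ConA-treated cells (adjusted p = 0.0078).

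SLC27A6, a transport protein for long-chain fatty acids (chr11:17899556-17968910), had the smallest p of all genes. Its CPM were 27.3, 7.11 and 6.57 in untreated 1 to 3 and 50.6, 14.8 and 8.85 with ALA, so it was higher with ALA in each number. With ConA they were 72.9, 23.1 and 12.2, and with both agents 33.7, 8.82 and 9.1, so it was lower with ALA in each number. Number 1 was the highest in every group, and the groups overlapped when numbers were ignored. The fold change of ALA was 0.81 ± 0.19 without ConA (edgeR adjusted p = 0.261) and −0.99 ± 0.19 with it (adjusted p = 0.0308), and the interaction was −1.80 ± 0.27 (95% interval −2.38 to −1.22, adjusted p = 0.105). Intron reads of SLC27A6, counted apart from exon reads, gave −1.71 ± 0.34.

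PLK2, a stress-responsive kinase of the polo-like family (chr2:45360374-45367441), was at 6.43, 7.11 and 3.67 CPM in untreated cells and at 6.95, 7.59 and 4.04 with ALA. ConA took it to 65, 40.6 and 34, and ConA and ALA gave 19.9, 11.7 and 11.4. The 4 groups fell into 3 levels that did not overlap, untreated and ALA together at the bottom, both agents in the middle and ConA at the top. The interaction was −1.80 ± 0.31 (edgeR adjusted p = 0.134), and the values by number were close, at −1.78, −1.84 and −1.66 on log2(CPM + 0.5).

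MARCO, a scavenger receptor of macrophages, differed from the genes above in its response to ConA, which lowered it by −1.22 ± 0.24. It was at 50.4, 15.1 and 5.64 CPM in untreated 1 to 3 and at 96.8, 20 and 10.2 with ALA. With ConA it was at 19.2, 6.5 and 2.84 and with both agents at 9.06, 1.79 and 2.21. The effect of ALA was upward in 3 of 3 numbers without ConA and downward in 3 of 3 with it, and neither effect passed the test (edgeR adjusted p = 0.535 and 0.0828). The interaction was −1.87 ± 0.36 (adjusted p = 0.161). CD209, a lectin receptor of dendritic cells and macrophages chosen after its values were seen, was at 74.9, 106 and 17.3 CPM in untreated 1 to 3 and at 183, 99.8 and 14.1 with ALA. Under ConA it was at 35.1, 15.4 and 3.62 without ALA and at 5.87, 8.08 and 0.551 with it. CD209 was lower with ALA under ConA in 3 of 3 numbers and higher at rest in number 1 alone. Its interaction was −2.22 ± 0.55 (edgeR adjusted p = 0.462), and −1.23 without all of number 1.

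The other 6 of these 12 genes had interactions between −0.81 and −1.88. MSMO1_1, an enzyme of cholesterol synthesis, rose with ALA in resting cells (0.84 ± 0.13, edgeR adjusted p = 0.0326), was at −0.15 ± 0.13 with ConA and had an interaction of −0.99 ± 0.19. Of its reads 92.7% were unique to it, and it overlaps KLHL2 on the same strand. EHD1, which recycles endocytosed receptors, stood at −0.98 ± 0.21, and RAB9A, which returns receptors from late endosomes to the Golgi, at −0.98 ± 0.22. DLC1 stood at −1.32 ± 0.28 and SH3PXD2A, an adaptor of podosomes, at −1.88 ± 0.41. MACO1 had the smallest interaction of the 12, −0.81 ± 0.19.

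By the same rule, the 12 genes taken among positive interactions were CD9, S100A8, CCDC3, PRF1, ITGA7, PSEN2, MMP12, IMPA2, LY6E, ABLIM1, MOB3A and SAMD14, with edgeR adjusted p between 0.161 and 0.351. All 12 had lower fitted levels with ConA than without, and 11 of them fell by the test for ConA, PRF1 being the exception. Choosing genes by a positive interaction favours those low with ConA, so this too is a description. ALA in the presence of ConA raised 6 of the 12 (CD9, S100A8, CCDC3, ITGA7, PSEN2 and LY6E), and ALA without ConA called none. The signs of the 2 effects of ALA were opposite in 9 of the 12.

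CD9, a tetraspanin of the cell surface (chr27:38742963-38774576), was at 28.8, 20.7 and 30.4 CPM in untreated 1 to 3 and at 39.1, 20.1 and 37.3 with ALA. It was at 22.6, 11.2 and 11.3 with ConA and at 107, 57.4 and 43.6 with both agents. The libraries with both agents were the highest of all 12, and the untreated and ALA groups overlapped. CD9 rose with ALA in ConA-treated cells by 2.21 ± 0.25 (edgeR adjusted p = 0.00321), against 0.23 ± 0.24 without ConA, an interaction of 1.97 ± 0.34 (95% interval 1.23 to 2.72, adjusted p = 0.161).

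S100A8, a calcium-binding protein of neutrophils and monocytes, was at 172, 109 and 101 CPM in untreated cells and at 138, 114 and 84.1 with ALA. It was at 43.6, 38.8 and 37.5 with ConA and at 82.4, 66.9 and 73.8 with both agents. The ConA libraries were the lowest, the libraries with both agents lay above them, and all 6 lay below the 6 libraries without ConA. The interaction of S100A8 was 1.07 ± 0.21 (edgeR adjusted p = 0.161).

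MMP12, the elastase of macrophages, had a wide spread between numbers. Its CPM were 72, 10.7 and 6.92 in untreated 1 to 3 and 23.4, 2.42 and 6.83 with ALA. Under ConA they were 6.7, 1.9 and 0.569 without ALA and 43.9, 27.7 and 14.3 with it. With ConA it was higher with ALA in 3 of 3 numbers, and without ConA it was lower in numbers 1 and 2 and nearly level in number 3. The interaction was 4.84 ± 0.83 (95% interval 2.91 to 6.77, edgeR adjusted p = 0.293), and the effect with ConA, 3.66 ± 0.63, did not pass (adjusted p = 0.0651).

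PRF1, the pore-forming protein perforin of cytotoxic T cells and natural killer cells, had fitted effects of ALA of opposite sign in the 2 states. Without ConA its CPM were 46.8, 14.5 and 14.4 in untreated cells and 28.8, 10.4 and 7.06 with ALA. With ConA they were 48.1, 8.8 and 11.6, and with both agents 62.5, 21.6 and 14. PRF1 was lower with ALA in 3 of 3 numbers at rest and higher in 3 of 3 under ConA, but the groups overlapped because number 1 was far above the others. The interaction was 1.35 ± 0.29 (edgeR adjusted p = 0.243), and neither effect of ALA passed (adjusted p = 0.444 and 0.249).

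PSEN2, the catalytic subunit of gamma-secretase, varied little between numbers. It was at 161, 162 and 158 CPM untreated and at 160, 170 and 165 with ALA, and under ConA at 34.1, 39.1 and 48 without ALA and at 70.8, 70.4 and 74.1 with it. The groups at rest overlapped, those under ConA did not, and the interaction was 0.80 ± 0.18. LY6E, an interferon-inducible surface protein, had an interaction of 0.74 ± 0.17, the smallest of these 12. ITGA7, a laminin-binding integrin chain, stood at 1.45 ± 0.32, with CPM of 6.7, 6.18 and 6.61 with ConA and 20.7, 15.9 and 23.5 with both agents. CCDC3 stood at 1.90 ± 0.35 on exon reads and at −0.01 ± 0.32 on intron reads, so the intron reads did not show the difference.

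The 24 genes of both directions had the same sign of the interaction in 3 of 3 numbers, both on the log2 scale and as a difference in CPM. They were chosen by their p in this contrast, so this is a description. Of the 22 with enough intron reads, 21 had the same sign in introns, CCDC3 being the exception. In introns 10 had an unadjusted p under 0.05, against 7.38% of all genes tested on intron reads. The intron reads come from the same libraries, so for genes chosen this way the higher share is no separate test.

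**Figure D2:**
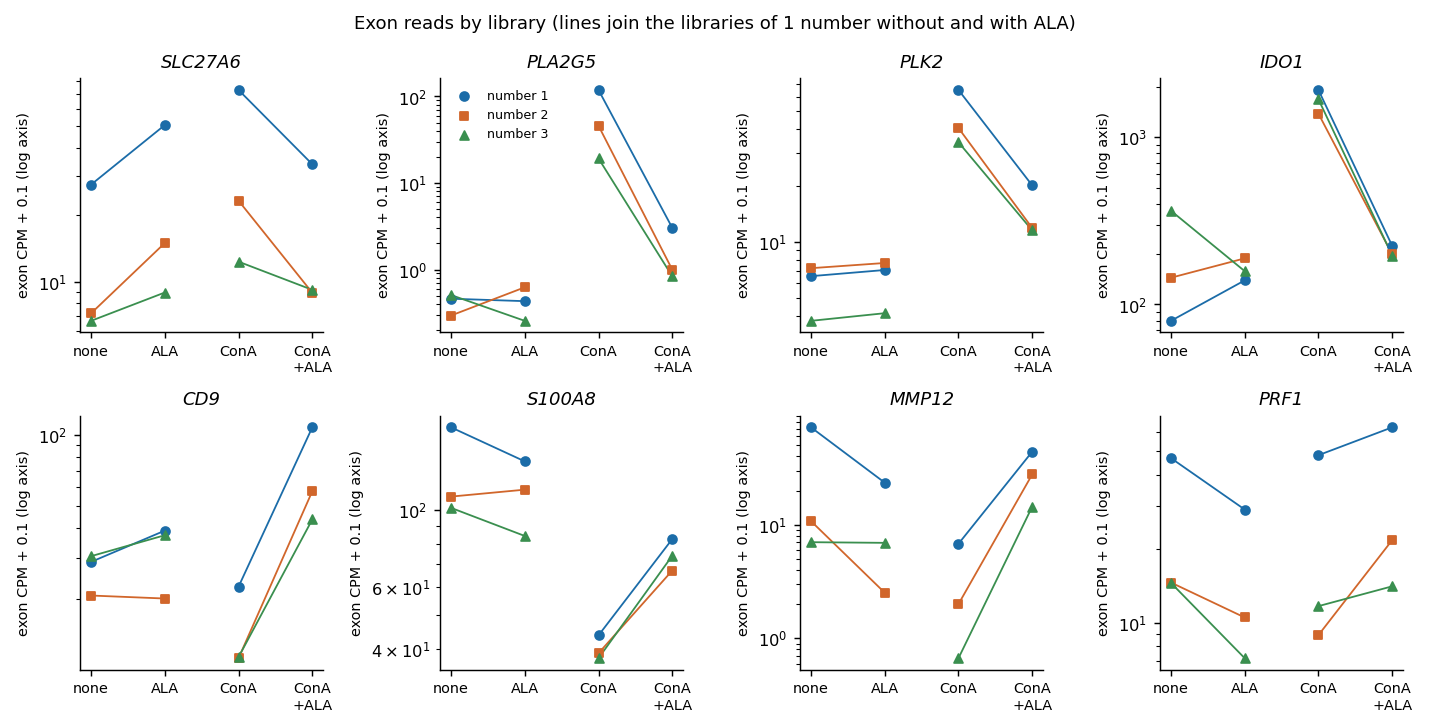
Exon CPM plus 0.1 on a log axis in each of the 12 libraries for 8 genes, with lines joining the libraries of 1 number without and with ALA in each state. In the upper row (SLC27A6, PLA2G5, PLK2, IDO1) the lines fall under ConA in every number, and in the lower row (CD9, S100A8, MMP12, PRF1) they rise there in every number.

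Among 21 tested inflammatory mediators the median interaction was −0.49 (all genes −0.00), with 16 below 0. At an unadjusted p under 0.05 there were 3 lower and 1 higher, against 3.46% and 4.06% of all genes. The edgeR test called none, while DESeq2, which called 0.299% of all genes, called 2, IDO1 and IL18. By number the list's median on log2(CPM + 0.5) was −0.89, −0.15 and 0.08, so it did not have 1 sign, and on intron reads it was −0.20. IDO1 (chr16:25391754-25407048) was at 79.7, 144 and 363 CPM in untreated 1 to 3 and at 139, 189 and 158 with ALA. It was at 1918, 1384 and 1687 with ConA and at 224, 199 and 196 with both agents, so the libraries with both agents lay within the untreated range and far below ConA alone. The interaction of IDO1 was −2.86 ± 0.67 (95% interval −4.44 to −1.27, edgeR adjusted p = 0.462), and its effect of ALA under ConA did not pass (adjusted p = 0.0694). The untreated libraries of IDO1 differed by number, and the effect at rest was −0.15 ± 0.47.

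IL18, a cytokine that drives interferon gamma secretion, was at 79, 58.7 and 69 CPM with ConA and at 20.8, 13.6 and 16.4 with both agents. At rest it was at 25, 24.2 and 28.1 without ALA and at 40.1, 17.9 and 9.78 with ALA, where the 3 numbers disagreed. IL18 fell with ALA under ConA (−2.04 ± 0.34, edgeR adjusted p = 0.0324), and its interaction was −1.73 ± 0.47. CSF1, the growth factor of macrophages, went the other way, with a rise under ConA of 1.27 ± 0.23 (adjusted p = 0.0214) and an interaction of 1.22 ± 0.31. TBX21, the transcription factor of type 1 helper T cells, named after its values were seen, was at 386, 349 and 259 CPM with ConA and at 148, 108 and 68.2 with both agents. TBX21 fell with ALA under ConA by −1.67 ± 0.19 (adjusted p = 0.00321), stood at −0.55 ± 0.19 at rest, and had an interaction of −1.12 ± 0.27.

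Intron reads, which the authors counted separately, were fitted in the same way over 15305 genes. They gave 2 calls for the interaction, 0.0131% of the genes tested, TNFSF15 higher and IDO2 lower (0.00653% each). TNFSF15 is a cytokine of the TNF family that costimulates T cells (chr11:68893084-68909602). Its intron reads were at 8.43, 18.3 and 14.3 CPM in untreated 1 to 3, at 16.3, 24.4 and 33.8 with ALA, at 3.02, 4.26 and 3.95 with ConA and at 107, 85.1 and 96.7 with both agents. The libraries with both agents were the highest and those with ConA alone the lowest, with no overlap. The interaction on intron reads was 3.87 ± 0.36 (edgeR adjusted p = 0.000119). On exon reads TNFSF15 had only 22, 40, 4 and 88 reads in the untreated, ALA, ConA and combined groups, and an interaction of 3.35 ± 1.32 that did not pass (adjusted p = 0.611). Which transcript gave the intron reads of this region was not tested.

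IDO2, the paralog of IDO1 that lies beside it (chr16:25319035-25385515), had intron reads at 10.7, 17.1 and 19.3 CPM in untreated 1 to 3 and at 15.3, 16.7 and 10.9 with ALA. They were at 116, 73.3 and 124 with ConA and at 9.28, 6.63 and 9.75 with both agents. ConA libraries were far above all others, and the libraries with both agents were below every library without ConA. The interaction of IDO2 on intron reads was −3.48 ± 0.37 (edgeR adjusted p = 0.000719). On exon reads IDO2 fell with ALA under ConA (−3.05 ± 0.47, adjusted p = 0.00909), and its interaction of −2.10 ± 0.70 did not pass (adjusted p = 0.531). Both genes were called on intron reads in each alternative fitted to them, including the model without the block.

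**Figure D3:**
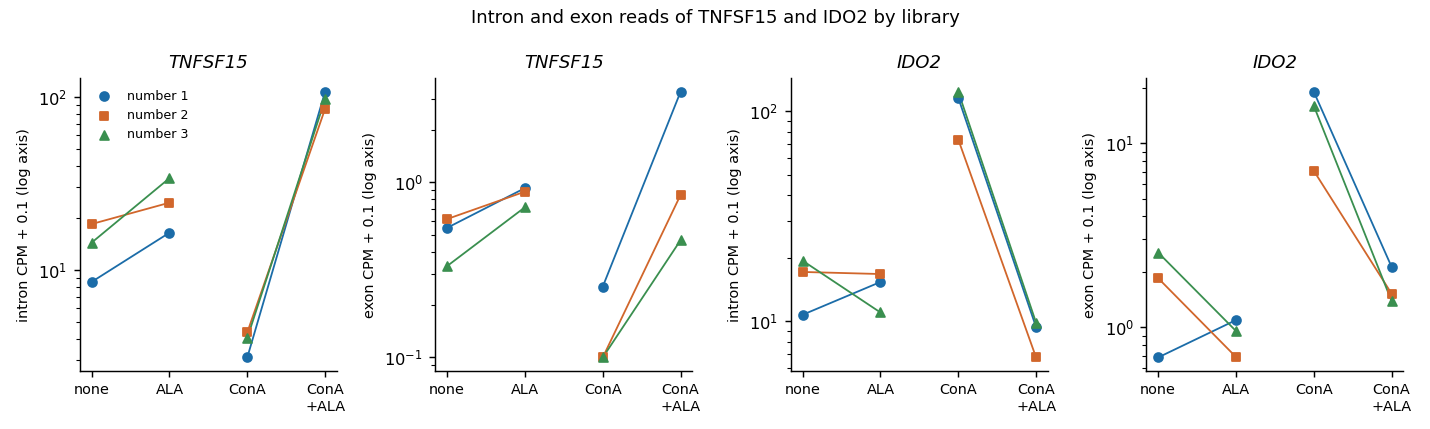
Intron and exon CPM plus 0.1 of TNFSF15 and IDO2 on log axes in each library, with lines joining the libraries of 1 number without and with ALA. The intron lines of TNFSF15 rise from between 3.02 and 4.26 with ConA to between 85.1 and 107 with both agents, and those of IDO2 fall from between 73.3 and 124 to between 6.63 and 9.75.

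Genes of G2 and M phase, the cyclins, kinases and motor proteins of mitosis, all had interactions below 0, in 28 of 28 tested members, against 50.3% of all genes. Their median was −1.26, and 14 of 28 had an unadjusted p under 0.05 on this side, against 3.46% of all genes. None was called in edgeR and 2, CCNB2 and TOP2A, in DESeq2, which called 0.299% of all genes. On intron reads of the same genes the median was −0.57, with 24 below 0 and 4 above. The effect of ALA was above 0 in 28 of 28 at rest (median 0.77) and in 2 of 28 under ConA (median −0.32), and no member was called in either state. CCNB2, a cyclin of mitotic entry, was at 0.36, 0 and 1.05 CPM untreated and 1.32, 1.18 and 4.66 with ALA, and under ConA it was at 5.28, 4.44 and 7.53 without ALA and 3.8, 3.52 and 7.45 with it. It had the lowest interaction of the list, −2.63 ± 0.72 (edgeR adjusted p = 0.462).

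TOP2A, the topoisomerase that untangles replicated chromosomes, was at 6.12, 11 and 18.1 CPM in untreated 1 to 3 and at 10.1, 16.3 and 46.2 with ALA. It was at 60.6, 85.4 and 85 with ConA and at 39.3, 48 and 66.7 with both agents. ALA thus went with more TOP2A at rest and less under ConA in 3 of 3 numbers, with an interaction of −1.56 ± 0.40. TOP2A overlaps CDC6 on the opposite strand, and whether counting used strand is not given in the sources used here. TPX2, a spindle assembly factor, stood at −2.01 ± 0.55. MKI67, the marker of cycling cells, stood at −1.32 ± 0.60, and its CPM of 53.7 in untreated 3 against 10.3 and 5.04 in untreated 1 and 2 show how far the numbers differed at rest.

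The summed CPM of the 28 G2 and M phase genes ranged from 93.7 to 232 in untreated cells, 122 to 446 with ALA, 362 to 454 with ConA and 272 to 462 with both agents. The difference of differences of this sum was −0.80, −1.13 and −0.92 (log2) in numbers 1, 2 and 3. Of 31 tested genes of DNA replication and S phase, 10 had a negative interaction at an unadjusted p under 0.05, against 3.46% of all genes. The list had a median of −0.50, with 27 of 31 below 0 and none called. Its median effect of ALA was 0.05 at rest and −0.49 under ConA. CLSPN, an adaptor of the replication checkpoint, stood at −1.60 ± 0.41, and the nucleotide-synthesis enzymes TK1 and TYMS at −1.09 ± 0.39 and −0.59 ± 0.22. In bulk RNA fewer cells of a kind and less RNA per cell cannot be told apart.

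**Figure D4:**
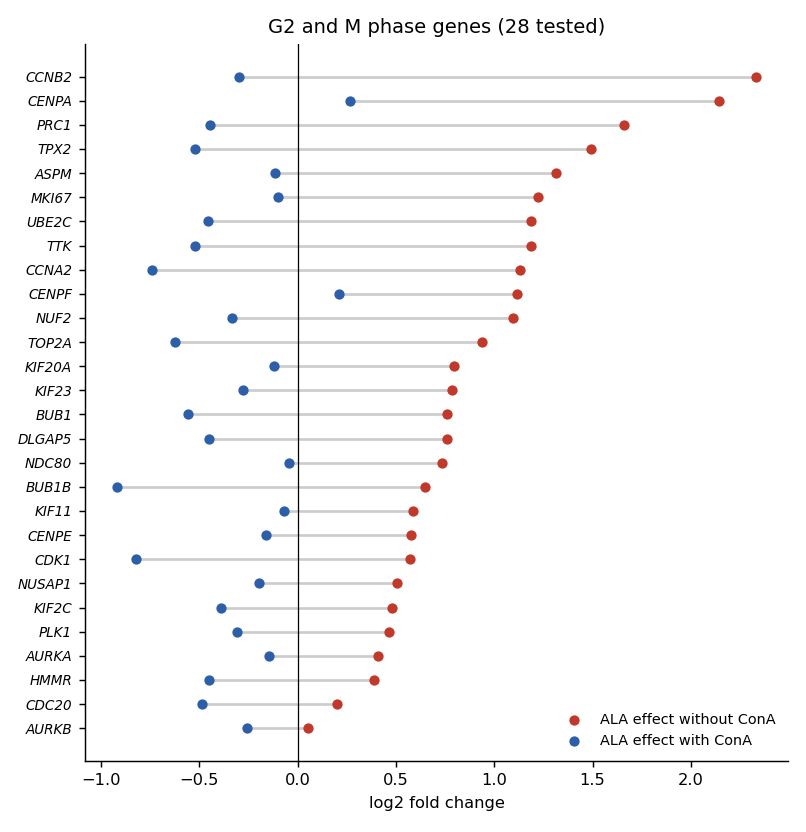
For each of the 28 tested G2 and M phase genes, the log2 effect of ALA without ConA (red) and with ConA (blue), ordered by the first. Every red point lies above 0 and to the right of its blue point, and 26 of the 28 blue points lie below 0.

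Chaperones and sterol enzymes had smaller interactions on the same side. In the unfolded protein response of the endoplasmic reticulum, 14 of 15 members lay below 0, against 50.3% of all genes, with a median of −0.45. A negative interaction with an unadjusted p under 0.05 was found in 6 members, against 3.46% of all genes. ALA stood above 0 in 15 of 15 members at rest (median 0.35) and in 2 of 15 under ConA (median −0.07). CALR, a calcium-binding chaperone, was at 652, 638 and 732 CPM untreated and 986, 735 and 906 with ALA, and under ConA at 1092, 939 and 1024 without ALA and 990, 906 and 994 with it. The ALA group lay above the untreated group, and the 2 groups with ConA overlapped, for an interaction of −0.45 ± 0.16. The chaperone HSP90B1 stood at −0.52 ± 0.20 and SEL1L, an adaptor of protein degradation at the endoplasmic reticulum, at −0.54 ± 0.22. No member of this list passed the adjusted threshold.

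Heat shock genes had a median of −0.39, with 12 of 14 below 0, and the members with the smallest p were the co-chaperone BAG3 (−1.36) and the cytosolic chaperones HSP90AA1 (−0.59) and HSP90AB1 (−0.48). The integrated stress response had a median of −0.30, with 19 of 23 below 0. ATF3, a transcription factor of stress, stood at −1.14 ± 0.32 there. Genes of ribosome biogenesis had a median of −0.27, with 20 of 23 below 0. None of these 3 lists had a member called.

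Cholesterol synthesis and uptake had a median interaction of −0.31, with 21 of 22 below 0. Of these, 6 had an unadjusted p under 0.05, against 3.46% of all genes on this side. DESeq2, which called 0.299% of all genes, called MSMO1_1. The median effect of ALA was 0.40 at rest and −0.05 under ConA. MSMO1_1 was the only member called for ALA at rest, and none was called under ConA. FDFT1, which makes squalene, stood at −0.58 ± 0.18, and SQLE, which oxidises it, at −0.96 ± 0.31.

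T cell cytokines lay mostly on the other side, with 13 of 18 above 0 and a median of 0.32. IL2, the growth factor that T cells secrete on activation, was at 5.99, 1.81 and 5.47 CPM in untreated 1 to 3, at 1.86, 5.63 and 6.44 with ALA, at 6.55, 18.6 and 21.9 with ConA and at 32.6, 64.7 and 96.3 with both agents. The libraries with both agents were above every other library, and the untreated and ALA groups overlapped. The interaction of IL2 was 2.24 ± 0.77 (95% interval 0.45 to 4.03, edgeR adjusted p = 0.611), and by number it was 3.69, 0.37 and 1.89 on log2(CPM + 0.5). IFNG stood at 0.04 ± 0.71 (95% interval −1.59 to 1.68) and TNF at 0.10 ± 0.32 (−0.59 to 0.78), and for the activation markers CD69 and IL2RA the values were −0.09 ± 0.27 and −0.53 ± 0.48.

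Chemokines had 9 of 13 above 0 and a median of 0.11, with −0.65, 0.81 and 0.53 by number. CCL3, which attracts monocytes and T cells, was at 40, 67.1 and 60.5 CPM untreated and 97.7, 84.2 and 126 with ALA, and under ConA at 134, 108 and 80.7 without ALA and 453, 387 and 404 with it. Here ALA went with higher levels in both states, and CCL3 rose under ConA (1.95 ± 0.24, edgeR adjusted p = 0.00675). The interaction was 1.07 ± 0.33 for CCL3 and 0.60 ± 0.21 for CCL4, but the 2 genes overlap in the annotation, so that their reads may be shared. Among genes of T cell activation the median was −0.09, CD40LG, the ligand through which T cells help B cells, stood at 0.77 ± 0.25 and ICOS, a costimulatory receptor, at −0.73 ± 0.24.

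**Figure D5:**
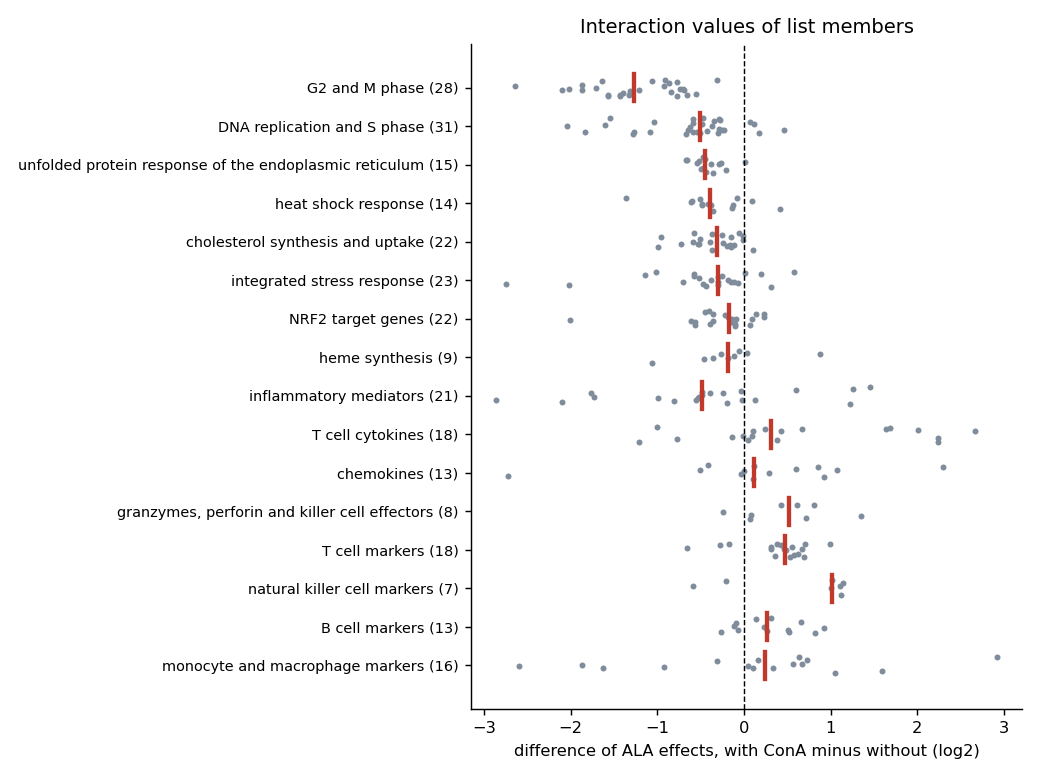
Interaction (log2) of each tested member of 16 gene lists, with the number of members in brackets, a red bar at each list's median and a dashed line at the median of all genes. The G2 and M phase members all lie left of the line, and most T cell, natural killer cell and killer effector genes lie right of it.

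Markers of the cell types that PBMC cultures can hold were read in the same contrast, and their part in the gene values above was not tested. T cell markers had 15 of 18 above 0 and 3 below, with a median of 0.47 and a lowest value of −0.66. At an unadjusted p under 0.05 there were 8 higher and 1 lower, against 4.06% and 3.46% of all genes. LEF1, a transcription factor of naive T cells, stood at 0.69 ± 0.18 and the surface proteins CD7 and CD5 at 0.67 and 0.49. The summed CPM of the 18 markers ranged from 2343 to 3947 in untreated cells, 2360 to 2998 with ALA, 1457 to 2062 with ConA and 1664 to 2213 with both agents, with a difference of differences of 0.50, 0.35 and 0.18 by number.

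Natural killer cell markers had 5 of 7 above 0, against 49.7% of all genes, and 2 below. Their median was 1.01 and their lowest value −0.59. On the intron reads of 6 members the median was 0.15, with 5 above 0 and 1 below. The transcription factor EOMES and the receptors KLRD1 and NCR3 stood at 1.01 ± 0.30, 1.01 ± 0.33 and 1.12 ± 0.37. The sum over 9 listed markers ranged from 36.6 to 41.4 CPM with ConA and from 54.5 to 67.0 with both agents, which did not overlap, and from 58.8 to 111 and 59.9 to 69.9 at rest without and with ALA. Killer effectors, with PRF1 at the head, had 7 of 8 above 0 and a median of 0.52. In edgeR no member of these 3 lists was called, and DESeq2, which called 0.299% of all genes, called PRF1.

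Neutrophil markers had 8 of 10 above 0 with a median of 1.03, and their summed CPM over 11 genes was 107 to 157 with ConA and 696 to 2403 with both agents, against 266 to 425 untreated and 288 to 2336 with ALA. Much of this sum is MMP9, a gelatinase that monocytes also make, with an interaction of 1.91 ± 1.19 (95% interval −0.97 to 4.79). Monocyte markers had 11 of 16 above 0, a median of 0.25 and values that ran both ways, with medians of −0.47, 0.51 and 0.36 by number. S100A12, a calcium-binding protein, stood at 2.92 ± 0.73 and FCGR1A, a receptor for antibodies, at 1.59 ± 0.43, while MARCO was at −1.87. FCN1 was the 1 monocyte marker of the 17 found that had no read in any library. The monocyte sum had a difference of differences of −0.26, 0.92 and 1.18 by number and so did not have 1 direction. B cell markers had a median of 0.26, red cell lineage markers 0.83, platelet markers 0.21 and dendritic cell markers −0.04.

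Genes of the pathway that ALA feeds had interactions with wide errors. Among 9 genes of heme synthesis, 7 lay below 0 with a median of −0.19, and none had an unadjusted p under 0.05. The values ran from −1.06 for ALAS1 to 0.87 for ALAS2. ALAS1, the first enzyme, was at 324, 701 and 1534 CPM in untreated 1 to 3, at 428, 457 and 517 with ALA, at 1709, 2405 and 2139 with ConA and at 533, 643 and 667 with both agents. With ConA the 2 groups did not overlap, whereas at rest the untreated libraries were spread from below to far above the ALA libraries. ALAS1 had an effect of −1.76 ± 0.37 under ConA (edgeR adjusted p = 0.122), −0.70 ± 0.37 at rest and an interaction of −1.06 ± 0.52 (95% interval −2.26 to 0.14). Without untreated 3, the highest of the untreated libraries, the interaction of ALAS1 was −1.64 and was called (edgeR adjusted p = 0.0154), and over all alternatives its adjusted p ran from 0.0154 to 1. It was −0.65 without untreated 1, −0.66 without all of number 1 and −1.66 without all of number 3. ALAS2, the other form of the first enzyme, had the smallest p of the 9 and ran the other way, at 0.87 ± 0.41 (edgeR adjusted p = 0.68). Its effect of ALA was 0.01 at rest and 0.88 under ConA, and its interaction on intron reads was −0.82. UROS stood at −0.46 ± 0.30. FECH, which inserts the iron, stood at −0.27 ± 0.28, HMOX1, which breaks heme down, at −0.45 ± 0.79, and TFRC, the receptor for iron-loaded transferrin, at −0.37 ± 0.41.

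Targets of NRF2, the transcription factor of the oxidative stress response, had a median interaction of −0.17, with 17 of 22 below 0, and −0.68, −0.27 and 0.31 by number. Their median effect of ALA was 0.55 at rest and 0.21 under ConA. AKR1B1 had the smallest p of the list and was the only member with an unadjusted p under 0.05. Its interaction was −0.62 ± 0.17 (edgeR adjusted p = 0.462), with effects of ALA of 0.51 at rest and −0.11 under ConA. Next by p were ME1 at −2.004 ± 1.055 and TXNRD1 at −0.36 ± 0.20. NQO1, a quinone reductase, was at 37.9, 42.4 and 66.5 CPM untreated and 265, 133 and 96.6 with ALA, and under ConA at 14.8, 17.8 and 22.4 without ALA and 81.2, 54 and 59.1 with it. In each state the ALA libraries lay above those without, and the effects were 1.71 ± 0.40 and 1.80 ± 0.41, neither of which passed (edgeR adjusted p = 0.474 and 0.152). The interaction of NQO1 was 0.09 ± 0.55, with a 95% interval of −1.19 to 1.37.

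Some genes were called for ALA in one state or both and had no interaction called. Most of those named here had intervals that include 0, which does not show that the effects were equal. GADD45A and GADD45G, which arrest the cell cycle after stress, were the 2 genes called in both states, and they and the following genes were chosen after their values were seen. GADD45A rose from 37.8, 134 and 88.5 CPM to 136, 226 and 177 at rest and from 22.1, 58.6 and 45.5 to 59.3, 106 and 102 under ConA. Its effects were 1.19 ± 0.18 and 1.16 ± 0.18, and its interaction was −0.03 with a 95% interval of −0.57 to 0.51. GADD45G rose by 1.75 ± 0.25 and 1.18 ± 0.25, with an interaction of −0.57 (−1.31 to 0.17). OSGIN1 and PIR, both induced by oxidative stress, rose under ConA and had intervals of −0.61 to 1.07 and −0.88 to 0.45. Of the other genes called at rest, MSMO1_1 was named above by its p, with an interaction of −0.99 ± 0.19. C6H7orf50, COL9A2 and AFDN had smaller fitted effects under ConA, with interactions of −0.63 (−1.06 to −0.20), −0.73 (−1.39 to −0.07) and −0.66 (−1.44 to 0.11). The intervals of C6H7orf50 and COL9A2 exclude 0, but edgeR called neither interaction (adjusted p = 0.50 and 0.62). Both changed sign on total gene reads.

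The phospholipase and prostaglandin list had a median of −0.75 over 15 members, with 10 below 0. DESeq2, which called 0.299% of all genes, called 2 members, PLA2G5 and PLA2G2F. By number the median on log2(CPM + 0.5) was 0.07, −0.33 and −0.41, and on the intron reads of 12 members it was 0.08, with 6 on either side, so the list did not have 1 sign. Beside the secreted enzymes above it held ALOX5AP, which presents arachidonic acid to the leukotriene pathway, at 1.73 ± 0.46. Of the remaining lists, interferon-stimulated antiviral genes had a median of 0.08, antigen presentation 0.14, cytokine signalling feedback 0.19 and inhibitory checkpoints 0.12. Medians were −0.02 for glycolysis, −0.11 for the citric acid cycle, −0.12 for the nuclear-encoded respiratory chain, −0.36 for one-carbon metabolism and −0.20 for amino acid transporters. Lipid storage stood at −0.17, autophagy and lysosome at −0.09, p53 targets at −0.15, aryl hydrocarbon receptor targets at 0.47, heme breakdown and iron handling at −0.18, porphyrin transporters at 0.05 and the metal response at −0.20. Of the lists in this paragraph, the medians by number had 1 sign in cytokine feedback, the citric acid cycle, one-carbon metabolism, amino acid transporters, lipid storage, aryl hydrocarbon receptor targets and the metal response, and both signs in the others. The mitochondrially encoded genes, at −0.29 with 10 of 10 below 0, follow the mitochondrial share given above, which went the other way in number 1.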

How the data were processed

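The 12 libraries were poly(A) RNA of canine PBMCs sequenced as 75 bp paired ends on a NextSeq 500, per the labels' protocols. CanFam3.1 and bcl2fastq stand in the submitters' processing notes, and no aligner, counter or strand setting was found in the sources used here. Per the file headers, the authors deposited raw counts per gene of exon, intron and whole-gene reads, each as total and unique reads, and TPM, which sum to 1000000 per library and entered no test. Groups and numbers come from the titles.

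Total exon counts were fitted with edgeR 4.0.16 in R 4.3.3 (filterByExpr on the groups, TMM, robust quasi-likelihood F-test) with 4 group means and the number as a block, leaving 6 residual degrees of freedom, and Benjamini-Hochberg adjustment over all 13358 genes kept. Intron counts were fitted alike. The biological coefficient of variation was 0.217 with the block and 0.422 without. Deviations from group means correlated at 0.439 to 0.816 in 18 same-number pairs of libraries and at −0.585 to 0.259 in 36 other pairs, and each of the 12 had its highest correlation within its number. CPM are on TMM-scaled library sizes, errors are SE, and differences by number use log2(CPM + 0.5). Intervals of counts cover counting error only. The fits were tested on simulated data, drawn from edgeR's own fitted means and dispersions. No result given here rests on that test.

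Named genes were the 12 smallest p in each direction (no gene being called) among those with symbols and 20 or more counts on average in the highest group, up to 3 members of each list by smallest p, and 12 fixed genes, with others as stated. The 40 lists, with 770 symbols, were written from general knowledge, and they and the contrast were chosen with earlier results of these data known. Alternatives were DESeq2 1.42.0, limma-voom (limma 3.58.1), no block, DESeq2-type size factors, other filters, unique and total gene reads, and each library or number left out. The model without the robust option, and alternatives on intron reads, were added after seeing the data. Figures used Python 3.11.15. No genome of this build was used, so no sequences are printed.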

Additional observations from a re-analysis of the deposited data

Results flagged for a closer look

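TNFSF15 had an interaction of 3.87 on intron reads, and the test of the difference between the effects of ALA with and without ConA passed there. IDO2 had an interaction of −3.485 on intron reads by the same test. Intron reads lie outside the exon reads on which the genes were otherwise compared, and on exon reads neither interaction passed.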

How the results depend on the processing

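For the interaction, 40 genes were called by DESeq2, 5 by limma-voom, 9 with no low-count filter and 3 on total gene reads, and 0 to 21 with a library or number left out. With no replicate block it was 0, as reported, and also 0 under the other settings run. Of 629 list members tested, 11 were called by DESeq2 and 2 by limma-voom, which called 0.299% and 0.0374% of all genes. With no filter 5 of 655 members were called, on total gene reads 1 of 639, and 0 to 6 with libraries left out. For ALA without ConA, 6 as reported, the counts were 0 with no replicate block, 65 by DESeq2, 28 by limma-voom, 18 with no filter, 0 without edgeR's robust option and 0 to 18 with libraries left out. Of these it was 0 without ALA 1 or 3, ConA and ALA 1 or all of number 1 or 2, 1 to 3 without untreated 1, ALA 2 or ConA and ALA 2 or 3, 15 without untreated 3 and 18 without number 3. For ALA with ConA, 74 as reported, they were 0 with no replicate block, 305 by DESeq2, 154 by limma-voom, 120 with no filter, 119 on total gene reads and 7 to 171 with libraries left out. The lowest, 7, was without number 2. Other counts over 1.5 times away were 11 and 13 without ConA 1 and 2, 18, 20 and 21 without ConA and ALA 1, 2 and 3, 23 without number 1, and 171 and 137 without untreated 1 and 3. On intron reads, 2 as reported, they were 28 by DESeq2, 5 with no filter and 2 to 16 with libraries left out, with 16 without untreated 3, 9 without number 3, 7 without number 1 and 4 without ALA 1. The cause of these differences was not tested.

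Of 98 single-gene results, 12 had a value of the other sign in some setting. On total gene reads C6H7orf50 stood at 0.14, COL9A2 at 0.29, OSGIN1 at −0.20 and CD69 at 0.13. IFNG stood at −0.0088 by DESeq2, −0.11 by limma-voom and −0.20 with no replicate block, and GADD45A at 0.041 with no replicate block. With libraries left out the ranges were CD69 −0.42 to 0.088, GADD45A −0.25 to 0.19, HMOX1 −1.01 to 0.00088, IFNG −0.94 to 1.03, IL2RA −0.81 to 0.0031, NQO1 −0.28 to 0.62, OSGIN1 −0.14 to 0.76, PIR −0.53 to 0.034, TFRC −0.64 to 0.028 and TNF −0.16 to 0.33. Few reads limit the test of genes such as PLA2G2F, and of TNFSF15 on exon reads. Why TNFSF15 had few exon reads beside its intron reads was not tested. With 3 libraries per group, a missed threshold does not show that effects were equal.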
